A study of Mus musculus with 2 samples.

Results

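The cytosolic ribosomal protein genes of the mouse were described by the binding of EP300 (p300), a coactivator that acetylates histones and is brought to DNA by transcription factors, in newborn liver. Members were the protein-coding genes of GENCODE mouse release 21 whose symbol is Rpl or Rps followed by a digit, together with Rplp0, Rplp1, Rplp2 and Rpsa; the kinase genes Rps6k and pseudogenes were left out. This rule gave 86 genes of the 21938 protein-coding genes, and the other 21852 genes served as background. Of the 86, 77 encode subunits of the cytosolic ribosome and are called the core set. The 9 others are paralogues or genes that only share the naming (Rpl10l, Rpl22l1, Rpl36al, Rpl39l, Rpl3l, Rpl7l1, Rps19bp1, Rps27l and Rps27rt).

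The samples were 2 replicates of 1 group: liver of B6NCrl mice at postnatal day 0, immunoprecipitated with an antibody to EP300, with no treatment or genetic change named in the labels. The labels number them as biological replicates 1 and 2, yet both bear the same biosample and donor labels. Their spread was therefore not taken as a measure of variation between animals. Whether 1 animal or a pool was used was not given in the sources used here. Each replicate had its own list of 300000 peaks. The optimal list, thresholded by the authors on the irreproducible discovery rate (IDR, a measure of how reproducibly peaks rank between replicates), held 26883 peaks, of which 26844 were analysed, and the stricter conservative list held 23700. The lists give no read counts, so depth is unknown. The labelled tissue was checked by its markers: 7 of 8 hepatocyte genes and 8 of 8 erythroid genes had a summit at most 10 kb from a start site, against 0 of 4 muscle genes and 0 of 4 neuronal genes.

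Ribosomal proteins are needed in near-equal numbers, because each ribosome holds a single copy of nearly all of them, and their genes are transcribed at high rates in growing tissues. Mammalian ribosomal protein promoters are short, usually lack a TATA box and start transcription within a run of pyrimidines, the sequence that later lets growth signals through mTOR control translation of the mRNAs. Newborn liver holds growing hepatocytes beside the last blood-forming cells of fetal life, and loss of 1 copy of several of these genes causes Diamond-Blackfan anaemia in humans. EP300 is best known from distal enhancers, and it is also found at promoters.

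The promoters of 5 members with an EP300 peak are shown first, because their letters carry what is described below about motifs. Each runs from 160 bases before an annotated start site to 20 bases from it onward, 5′ to 3′ on the strand of the gene, on the mm10 build. Capitals mark any of CCGGAAG (the core of sites for ETS factors such as GABP), ATGGCGG (YY1 type), GGGCGG (the GC box of SP and KLF factors), CCAAT (NF-Y), GATAA (GATA factors), CACGTG (the E box) and CTCGCGAG, or their reverse complements.
Rpl26 (chr11:68901423-68901602, plus strand): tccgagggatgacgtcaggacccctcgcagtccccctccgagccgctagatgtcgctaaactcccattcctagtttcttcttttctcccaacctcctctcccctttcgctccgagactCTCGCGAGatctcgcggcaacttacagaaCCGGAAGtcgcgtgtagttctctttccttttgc
Rps6 (chr4:86857393-86857572, minus strand): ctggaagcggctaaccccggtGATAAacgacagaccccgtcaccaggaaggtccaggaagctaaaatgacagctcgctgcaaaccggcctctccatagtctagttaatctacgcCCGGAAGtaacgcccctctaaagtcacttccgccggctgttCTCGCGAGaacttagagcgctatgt
Rps7 (chr12:28635934-28636113, minus strand): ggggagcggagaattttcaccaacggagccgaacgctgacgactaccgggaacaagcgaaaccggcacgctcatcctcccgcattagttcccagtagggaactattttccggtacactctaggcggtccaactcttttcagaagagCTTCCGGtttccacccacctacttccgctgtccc
Rps26 (chr10:128626728-128626907, minus strand): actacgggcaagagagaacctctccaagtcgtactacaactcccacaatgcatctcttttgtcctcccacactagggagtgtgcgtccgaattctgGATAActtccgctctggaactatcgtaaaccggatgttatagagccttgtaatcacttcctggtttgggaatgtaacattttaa
Rpl4 (chr9:64173215-64173394, plus strand): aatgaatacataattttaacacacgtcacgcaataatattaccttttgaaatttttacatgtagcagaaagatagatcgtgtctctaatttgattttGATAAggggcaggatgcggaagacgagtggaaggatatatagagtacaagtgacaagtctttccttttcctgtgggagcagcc

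Within the bases shown, Rpl26 and Rps6 each hold CCGGAAG and the palindrome CTCGCGAG, Rps7 holds CCGGAAG without it, and Rps26 and Rpl4 hold neither but have a GATAA. In the longer windows used for the counts below, Rps26 also has CCGGAAG and Rpl4 also has CTCGCGAG. The core members shown next, Rpl5 and Rps4x, had no promoter peak in the optimal list. Rpl5 has none of the 7 motifs, either within the bases shown or in the longer window. Rps4x has only GC boxes within the bases shown. Its longer window also holds the motifs of NF-Y and of GATA factors. The promoters shown do not stand for all members with or without peaks. In the longer windows Rpl13a, without an optimal promoter peak, holds several of the 7 motifs. Rpl3, Rpl21 and Rpl27, with strong peaks, hold none of them there. The longer windows are tied to the gene's outermost 5′ end, which for Rpl3 and Rpl21 is not the start nearest to the summit. In the shorter window at that nearest start, Rpl3 holds GGGCGG and CCAAT, and Rpl21 holds GGGCGG and GATAA. Rpl27 holds none of the 7 in either window.
Rpl5 (chr5:107900342-107900521, plus strand): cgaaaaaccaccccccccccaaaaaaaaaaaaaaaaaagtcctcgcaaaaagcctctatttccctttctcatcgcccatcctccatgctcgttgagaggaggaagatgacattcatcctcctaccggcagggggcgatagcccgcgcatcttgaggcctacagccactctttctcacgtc
Rps4x (chrX:102189375-102189554, minus strand): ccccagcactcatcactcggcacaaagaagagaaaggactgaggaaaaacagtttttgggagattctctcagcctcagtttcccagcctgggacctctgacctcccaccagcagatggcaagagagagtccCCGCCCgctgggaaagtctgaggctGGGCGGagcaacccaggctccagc

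EP300 was found at the promoter of most ribosomal protein genes. A summit of the optimal list lay within 1 kb of an annotated start site in 61 of 86 members (70.9%, 95% Clopper-Pearson interval 60.1 to 80.2), against 23.6% of the other protein-coding genes. Within 10 kb the count was 69 of 86 (80.2%, interval 70.2 to 88.0), against 40.8%. All these intervals cover counting error only, and with a single group there is no contrast between conditions to test. The shares were already apart close to the start: 49 of 86 had a summit within 100 bases (57.0%), against 11.8% of other genes. Summits over 1 kb from every start site and within 10 kb showed no such excess. They were seen near 16 of 86 members (18.6%, interval 11.02 to 28.45), against 24.8% of other genes, a share inside that interval. Between 1 kb and 2 kb no member was added. The furthest nearest summit inside the 1 kb limit lay 516 bases away, at Rpl7l1, and the closest outside it lay 2081 bases away, at Rpl13a.

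**Figure D1:**
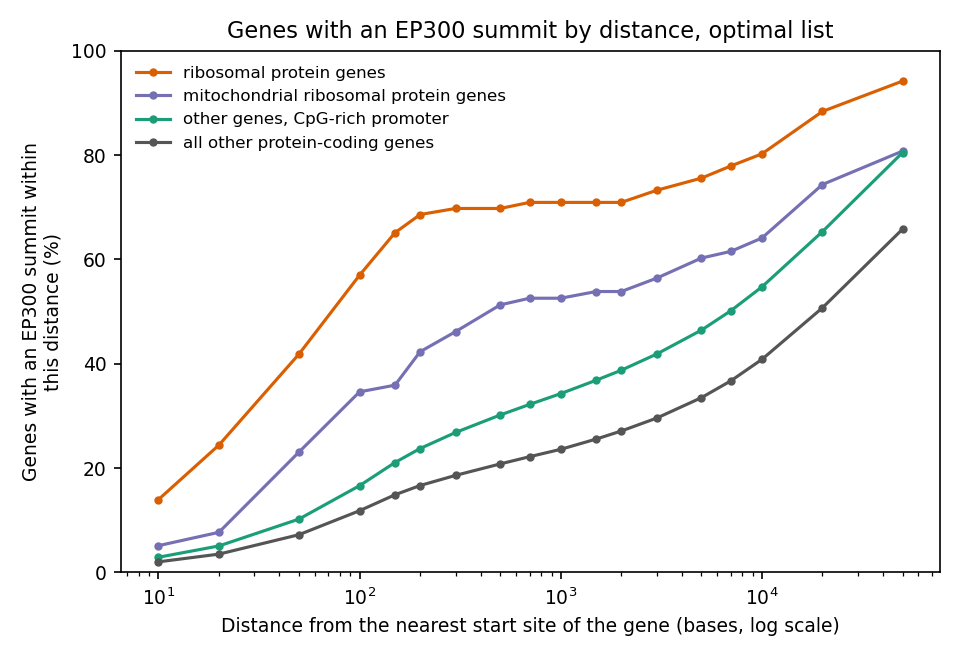
Share of genes with an EP300 summit of the optimal list (%, vertical axis) within a given distance of one of their start sites (bases, log scale). The curve of the ribosomal protein genes reaches 57.0% at 100 bases and 70.9% at 1 kb, while that of all other protein-coding genes is at 11.8% and 23.6%, and those of mitochondrial ribosomal protein genes and of other CpG-rich promoters lie between them.

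Many members have CpG-rich promoters. With a CpG-rich promoter taken as a GC content of at least 55% and an observed-to-expected CpG ratio of at least 0.6 in the 200 bases on each side of the gene's 5′ end, 72.1% of members and 44.5% of other genes had one. Among CpG-rich promoters, 42 of 62 members had a summit within 1 kb (67.7%) and 3335 of 9729 other genes had one (34.3%). Among promoters that were not CpG-rich, 19 of 24 members had one (79.2%), against 1822 of 12123 other genes (15.03%). The share within 1 kb was therefore above the background in both classes as defined here. Summits over 1 kb from every start site and within 10 kb differed by class. They were seen near 14.5% of CpG-rich members (interval 6.86 to 25.8) and 32.4% of other CpG-rich genes. Outside that class the shares were 29.2% (interval 12.6 to 51.1) and 18.7%, and these differences were not tested. The class was read at the gene's outermost 5′ end, which for some members is not the start nearest to the summit. Other members fell just short of the ratio, such as Rpl27 with a GC content of 57.6% and a ratio of 0.54. The smaller class of members thus depends on the annotation and on these limits. A start site of another gene within 1 kb also goes with more peaks: 15 of 19 members with such a neighbour had a promoter summit (78.9%), against 45.7% of other genes with one. Of the 67 members without such a neighbour 46 had a summit (68.7%), against 19.8%. GENCODE also lists more start sites for these genes, with a median of 6 per member and 3 per other gene. Using only the 5′ end of each gene the shares were 68.6% and 19.4%.

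Other genes of the translation apparatus had promoter peaks less often than the members and more often than the background. Nuclear genes for the mitochondrial ribosome (Mrpl and Mrps), which build the separate ribosome that translates mitochondrial mRNAs, had one in 41 of 78 cases (52.6%). Genes for cytosolic initiation and elongation factors (Eif and Eef) had one in 35 of 68 cases (51.5%). These differences between gene families were not tested. Pseudogenes of ribosomal proteins, the processed copies that outnumber the genes, had a summit within 1 kb in 5 of 294 cases (1.70%) and within 10 kb in 60 (20.4%). The treatment of reads that match more than 1 copy was not given in the sources used here. Members with near-identical copies are uncertain for that reason.

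Both replicates showed the promoter peaks. When each replicate's list was limited to its 26844 peaks of highest signal, the number in the optimal list, replicate 1 had a summit within 1 kb of 68 members (79.1%), against 27.2% of other genes. Replicate 2 had one at 58 members (67.4%), against 22.1%. Taking all 300000 peaks of a replicate, which include many weak ones, the counts rose to 83 members (96.5%) against 58.4% in replicate 1, and to 78 members (90.7%) against 52.8% in replicate 2. Replicate 1 thus had more member promoters than replicate 2 at either depth of list, and more promoters of other genes as well. Of the 61 promoter peaks in the optimal list, 53 were among the highest peaks of both replicates, 56 were also in the conservative list and 60 had a summit in both full lists.

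By subunit, 35 of 43 large-subunit genes (81.4%), 22 of 31 small-subunit genes (71.0%) and 2 of 3 genes of the P stalk (Rplp0, Rplp1 and Rplp2, which recruit elongation factors) had a promoter peak. The core set as a whole had 59 of 77 (76.6%). Of the 9 genes outside it, 2 had one: Rps27l, a paralogue of Rps27, with a signal value of 44.3, and Rpl7l1, whose product acts in the nucleolus, with 27.9. The 19 core genes linked to Diamond-Blackfan anaemia had 12 (63.2%) and the 58 others had 47 (81.0%). In the conservative list these counts were 14 of 19 (73.7%) and 43 of 58 (74.1%), a much smaller gap in the same direction, and the difference was not tested.

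The strength of the promoter peaks varied widely among members. The signal value is the authors' value per peak, with no stated unit, and it was compared only within a list. The strongest promoter peak per member had a median of 59.0 (quartiles 37.8 and 100.03, range 11.4 to 297), against a median of 43.2 over the 5157 other genes with a promoter peak and 42.9 over those with a CpG-rich promoter. In percentiles of the other genes' promoter peaks, the median member stood at 69.5 in the optimal list, at 71.4 in replicate 1 and at 68.2 in replicate 2. In the optimal list 42 of 61 members lay above the median of the other genes, 24 (39.3%) in their top 25% and 14 in their top 10%. The mitochondrial ribosomal protein genes had a median of 47.2, with 7 of 41 (17.1%) in that top 25% and 0 in the top 10%. The translation factor genes had a median of 50.2, with 9 of 35 (25.7%) in the top 25%. In replicate 2, however, the translation factor genes stood near the members, with 42.4% against 41.4% in the top 25%. Promoter peaks of members were thus mostly of middle to high strength, and 45 of the 61 exceeded the median of all peaks of the list, 38.3.

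**Figure D2:**
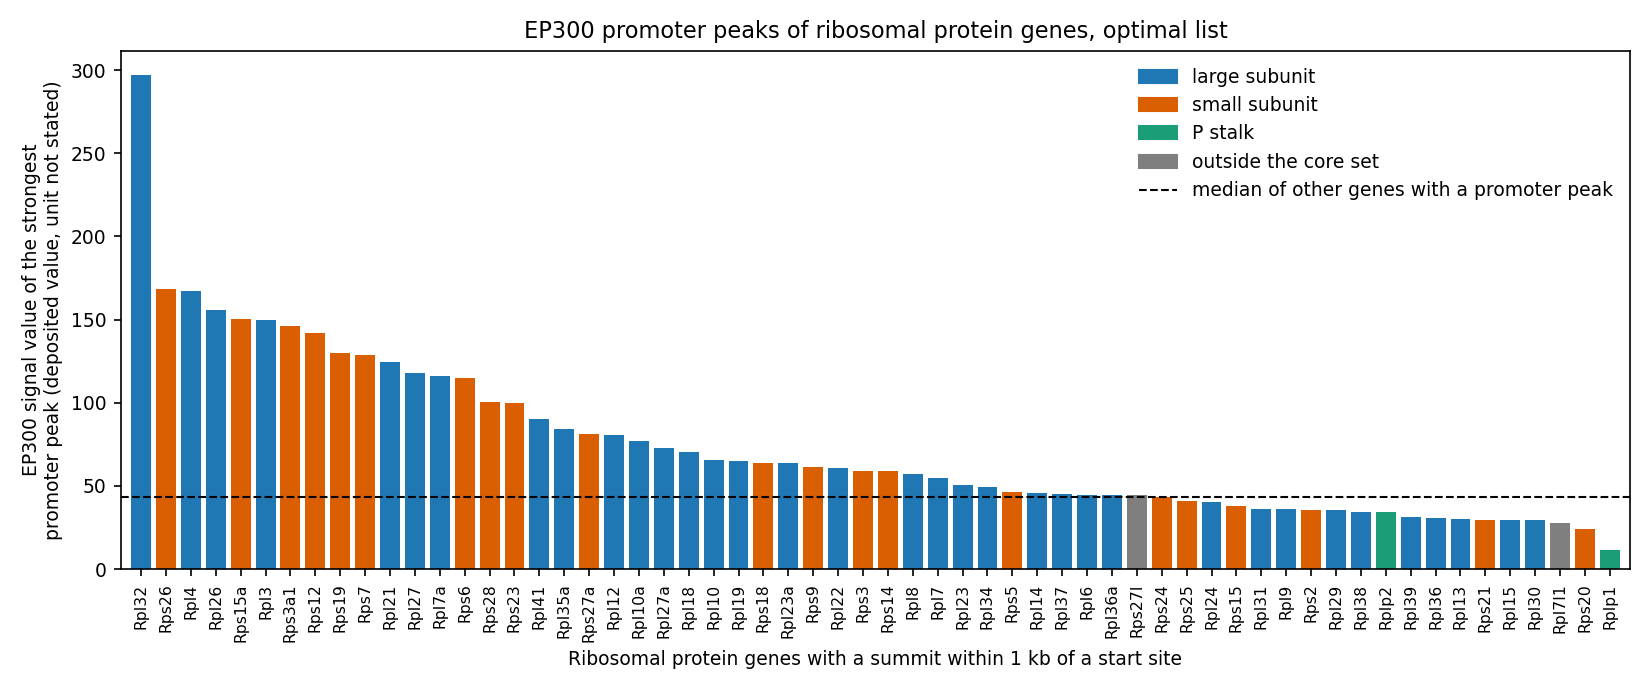
Signal value in the optimal list (deposited value, unit not stated) of the strongest promoter peak of 60 of the 61 members with a summit within 1 kb, in falling order and coloured by subunit. Rpl32 stands apart at 297, the next 11 members lie between 118 and 168, and the dashed line marks the median of other genes, 43.2.

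Rpl32, a large-subunit gene whose introns host a small nucleolar RNA, had the strongest promoter peak among members. Its signal value was 297 in the optimal list, 177 in replicate 1 and 114 in replicate 2, at ranks 494, 578 and 470 of those lists. The gene lies at chr6:115805505-115808747 on the minus strand, and the summit was 145 bases before the start site, outside the annotated gene. No other member ranked among the first 1000 peaks of any of these 3 lists.

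The next 3 members lay close together. Rps26, which encodes a small-subunit protein near the mRNA exit channel, had a signal of 168 (104 in replicate 1 and 61.5 in replicate 2), with its summit in an exon 46 bases after the start. Rpl4, which lines the tunnel through which the new protein leaves and hosts 5 small nucleolar RNAs, had 167 (115 and 55.4), with its summit 154 bases before the start. A start site of another gene, Zwilch, was nearer to that summit, at 117 bases. Rpl26, another protein of the large subunit, had 156 (94.3 and 61.9), 24 bases before the start. In both replicates these genes had lower values than Rpl32, and their own order differed between the replicates.

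Rps15a had a signal of 150 (92.8 in replicate 1 and 58.2 in replicate 2) and Rpl3, whose protein reaches towards the peptidyl transferase centre, also had 150 (94.9 and 55.8). Rps3a1 had 146 (108 and 36.0) and Rps12 had 142 (91.8 and 44.3). Rps19, the first gene linked to Diamond-Blackfan anaemia, had 130 (75.7 and 48.6), and Rps7 had 129 (78.8 and 49.0). These 6 genes keep high values in both replicates, and Rps3a1 lay above Rps15a and Rpl3 in replicate 1 and below them in replicate 2. Rpl21 had 125 (93.1 and 32.1) and Rpl27 had 118 (75.5 and 41.0). Of the 12 strongest members, 6 are small-subunit and 6 large-subunit genes, and 6 are linked to Diamond-Blackfan anaemia (Rps26, Rpl26, Rps15a, Rps19, Rps7 and Rpl27).

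Where they had a promoter peak, the anaemia genes had a median signal of 109 (12 genes), against 57.4 for the other core genes (47 genes). Small-subunit genes had a median of 67.0 and large-subunit genes 57.4, with overlapping ranges of 24.03 to 168 and 29.3 to 297. Among the highest peaks of each replicate their medians were close in replicate 1 (41.9 and 40.9) and further apart in replicate 2 (27.5 and 15.4). Neither the difference by anaemia nor that by subunit was tested.

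The weakest promoter peaks in the optimal list were those of Rpl15 (29.5), Rpl30 (29.3), Rpl7l1 (27.9), Rps20 (24.03) and Rplp1 (11.4). Rplp1, a P stalk gene, ranked 72628 in replicate 1 and 72420 in replicate 2, and was the only one of the 61 outside the highest peaks of both replicates. Rps20 ranked 16545 and 40166. Each rank is that of the strongest summit within 1 kb in that replicate, which need not be the summit of the optimal list. For Rps20 the summit lay at 68 bases from the start (negative before it) in the optimal list, at -41 in replicate 1 and at 847 in replicate 2. For Rplp1 the places were 48, -152 and -372. Rpl15 and Rpl30 were weak but present among the highest peaks of both replicates, with signals of 17.9 and 9.54 for Rpl15 and of 17.1 and 15.2 for Rpl30. Rps21 and Rpl13, named here after their values were seen, rest on 1 replicate: Rps21 had a signal of 30.8 in replicate 1 and no summit within 1 kb in replicate 2, and Rpl13 ranked 14754 in replicate 1 and 163610 in replicate 2.

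**Figure D3:**
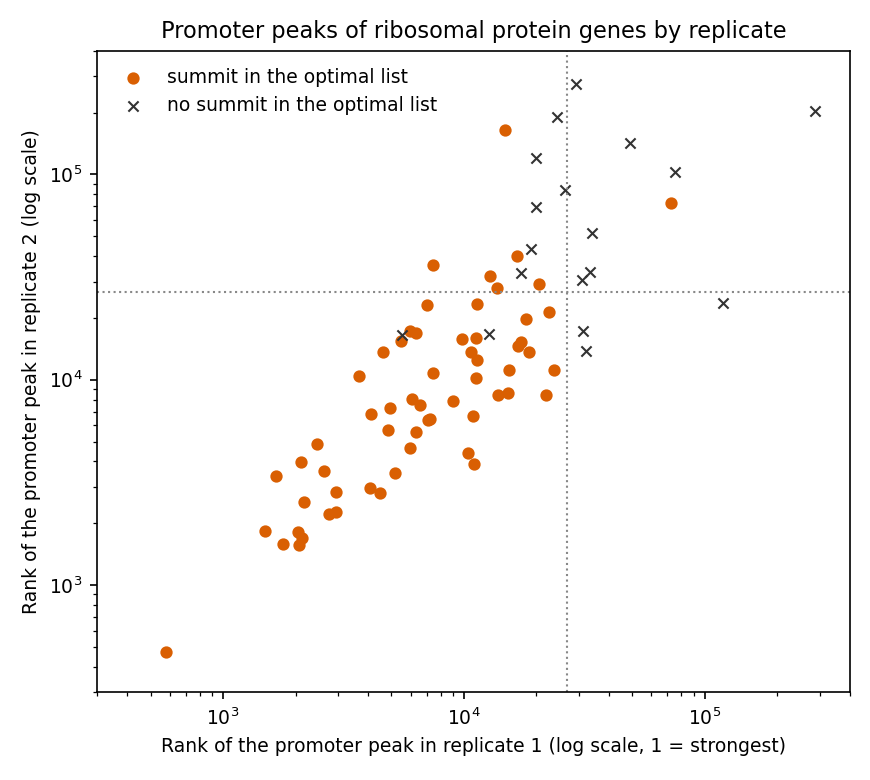
Rank of each member's strongest promoter peak in the full list of replicate 1 (horizontal) and replicate 2 (vertical), both on log scales with rank 1 the strongest. Filled points are members with a promoter peak in the optimal list, crosses are members without one, dotted lines mark rank 26844, and members missing from either full list are not drawn. The filled points run along the diagonal, and most crosses lie at weaker ranks.

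Across the 60 members with a promoter peak in the optimal list and a summit in both replicates, signal values of the replicates were related, with a Spearman correlation of 0.77 and a Pearson correlation of the log2 values of 0.80. This is a description across genes, which share the 2 libraries and the control and were chosen through a list made from both. The summits of the replicates lay a median of 38.5 bases apart, within 50 bases of each other in 35 of the 60 members. This is about the size of the typical distance to the start itself, so offsets of single members carry an error of that order.

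The summits of members lay close to the start site. The median offset was -29 bases, slightly upstream, against -66 bases for other genes, and the median distance without its sign was 48 bases against 124. Within 50 bases of a start site were 32 of 61 members (52.5%) and 25.4% of other genes with a promoter peak. Within 100 bases the shares were 47 of 61 (77.05%) and 43.1%, and within 200 bases 58 of 61 (95.1%) and 64.1%. The summits were upstream in 44 of 61 members (72.1%), a share like that of the other genes (71.3%). The members' summits thus lay in a narrower span on both sides of the start. Each replicate's highest peaks gave a similar picture, with a median distance of 48 bases in replicate 1 and 50.5 in replicate 2, against 116 and 154 for other genes. Closeness to the start was not particular to the members. The mitochondrial ribosomal protein genes had a median offset of -25 bases and a median distance of 57 bases in the optimal list. Their median distance was 44 bases in replicate 1 and 54 in replicate 2. Within 200 bases their share in the optimal list was lower than that of the members, at 78.0%.

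**Figure D4:**
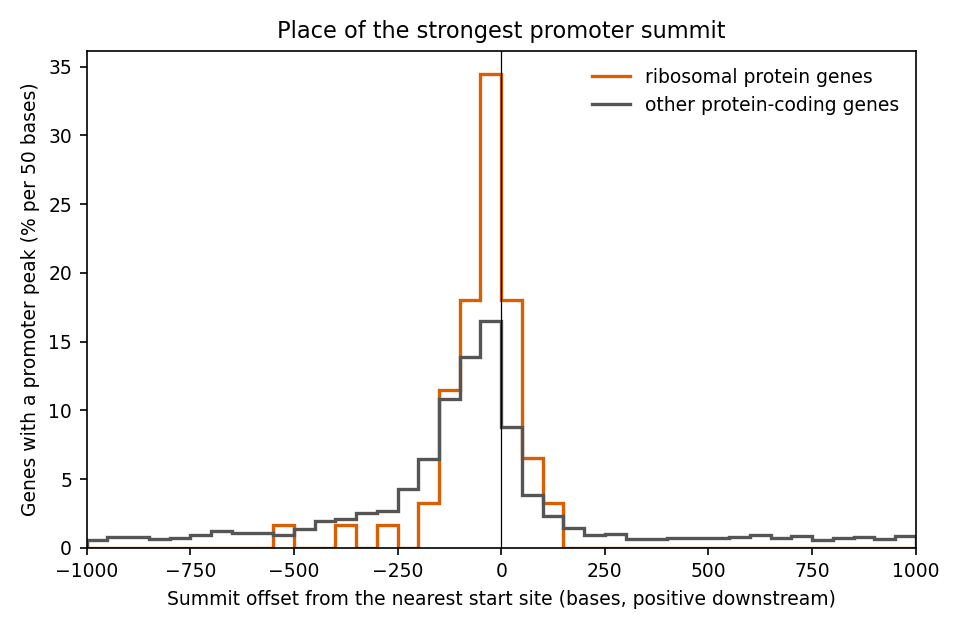
Offset of the strongest promoter summit from the nearest start site of the gene (bases, positive downstream), as the share of genes per 50 bases, for the 61 members and the 5157 other genes with a promoter peak. The members peak in the 50 bases before the start, and 58 of 61 lie within 200 bases, while the other genes spread over the whole window.

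More start sites per gene shorten the distance to the nearest one. With the 5′ end of the gene as the only start, the median distance was 69 bases for members and 145 for other genes, and the median offset -4 and -54. In the optimal list the small-subunit genes had 21 of 22 within 100 bases and all 22 within 200, against 25 and 33 of 35 large-subunit genes. By replicate the shares within 100 bases were 92% of small-subunit and 73.7% of large-subunit genes in replicate 1. In replicate 2 they were 81.0% and 63.9%. Within 200 bases the shares were alike, at 92% and 92.1% in replicate 1 and at 90.5% and 88.9% in replicate 2. The difference between the subunits was not tested. The 3 members whose strongest promoter summit lay beyond 200 bases were Rpl10 (-382), whose protein joins the large subunit late in its assembly, Rpl14 (-288) and Rpl7l1 (-516). Rpl10 also had a weaker summit of the optimal list 0.171 kb from a start site. The summit of Rpl7l1 was at -48 bases in replicate 1 and at -644 in replicate 2. By the annotation 30 of the 61 summits lay outside the gene, 28 in an exon and 3 in an intron.

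For 25 members no summit of the optimal list lay within 1 kb. They were 18 core genes (among them Rpl11, Rpl13a, Rpl17, Rpl28, Rpl35, Rpl37a, Rpl5, Rplp0, Rps10, Rps13, Rps16, Rps27, Rps29, Rps4x and Rpsa) and 7 genes outside the core set. Most of them still had a summit in the longer lists: 18 of the 25 had a summit within 1 kb in the full lists of both replicates, 4 in 1 of them and 3 in neither. As the full lists reach more than 50% of the other genes as well (58.4% and 52.8%, above), a summit there says little by itself. The 3 members in neither list were Rpl10l, Rpl39l and Rps27rt, paralogues outside the core set, of which Rpl10l and Rpl39l are known from the testis. The median rank in replicate 1 was 31697.5 for members without an optimal peak (22 genes) and 7076 for those with one. In replicate 2 it was 47548 (18 genes) and 8233.5.

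Several of the 25 lay near the limit. Rpl11, Rpl17 and Rps27 had a promoter summit in the conservative list, though not in the optimal one. Rps27 ranked 12659 in replicate 1 and 16689 in replicate 2, and Rpl13a ranked 5517 and 16457, so both were among the highest peaks of each replicate. A further 9 were among the highest peaks of 1 replicate. Whether these genes carry less EP300 than the rest cannot be read from their absence in the optimal list alone.

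Further members were outside the highest peaks of both replicates, Rpl11 among them despite its place in the conservative list. Rpl5 and Rpl11 encode the proteins that bind the 5S RNA and, when free, inhibit Mdm2, the ligase that degrades p53. Rpl5 had signals of 10.1 and 4.48 in the replicates (ranks 48809 and 142300), and Rpl11 had 13.0 and 7.42 (ranks 33329 and 33587). Rps4x, the X-linked gene for a small-subunit protein, had 8.19 and 4.98. Rpsa, also known as the laminin receptor, had 13.9 and 7.76. Rplp0, the stalk's base, had 12.5 in replicate 1 and no summit in replicate 2. Rpl35 was the weakest core gene in replicate 1, with 6.08 at rank 171382, and had no summit in replicate 2.

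Other core genes without an optimal peak stood between. Rpl17, Rpl28 and Rps13 ranked among the highest peaks of replicate 1 only, with signals there of 21.8, 19.6 and 19.6. Rpl37a and Rps29 did so in replicate 2 only, with signals there of 8.95 and 11.1. Rps10 had 14.5 and 3.48 and Rps16 had 12.8 and 6.28, in neither replicate's highest peaks. Outside the core set Rpl22l1 and Rpl36al were among the highest peaks of replicate 1 only, at 20.3 and 15.7. Rpl3l, the muscle paralogue of Rpl3, had 9.17 in replicate 1 and no summit in replicate 2, and Rps19bp1, a regulator of the deacetylase SIRT1 that is no subunit, had 5.00 and 3.91.

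The ribosomal components whose symbols the naming rule misses were read in the same way. Rack1, a scaffold protein of the small subunit, had a promoter peak of 50.9 with its summit 24 bases before the start. Fau, which encodes a ribosomal protein fused to a ubiquitin-like protein, had none in the optimal list and ranked 19870 and 79793 in the replicates. Rps27a, a member made as a fusion with ubiquitin, had 81.3 with its summit 93 bases after the start. A start site of another gene, Clhc1, was nearer to that summit, at 10 bases.

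For 15 members the strongest summit within 10 kb lay over 1 kb from their own start sites, 7 of them with a promoter peak as well. In 12 of the 15 a start site of another gene was nearer, and in 8 that start lay within 1 kb of the summit. The strongest was 439, 8.06 kb downstream of a start site of Rpl6, where the promoter peak itself had 44.8. The nearest start was that of Hectd4, 3.96 kb away. The next, 346, lay inside Rpl3, 4.01 kb downstream of its outermost annotated start. It lay 3.48 kb from a start of Syngr1, a synaptic vesicle gene. This summit was upstream of the Rpl3 start nearest to that gene's promoter peak. Both distal summits exceed every promoter peak of a member.

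The summit of 165 near Rps29 lay 151 bases from the start of Lrr1, and that of 91.2 near Rps19bp1 lay 35 bases from the start of Atf4, a transcription factor of the stress response. Those near Rplp2 (80.9) and Rpl23a (79.5) lay 643 bases from the start of Pnpla2, which encodes a triglyceride lipase, and 217 bases from that of Nek8. Near Rpl14 no other start was closer to the distal summit, which had 145 at 2.34 kb before its start, above its promoter peak of 45.7. The same held for weaker distal summits near Rpl7l1 (29.0) and Rps13 (26.8). For 17 members there was no summit within 10 kb, and for 5 of those none within 50 kb.

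Ribosomal protein genes often carry small nucleolar RNAs (snoRNAs), guides of ribosomal RNA modification, in their introns. A snoRNA was annotated in 30 members (34.9%), 58 snoRNAs in all, and in 1.05% of other genes. Promoter peaks were seen in 22 of the 30 hosts and in 39 of the 56 other members, with medians of 64.7 and 57.4. The counts and medians of the 2 kinds of member lay close to each other.

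Motifs were searched on both strands from 250 bases before to 50 bases after the 5′ end of each gene. CCGGAAG was found in 26.7% of member promoters, against 10.7% of other promoters and 19.0% of other CpG-rich ones. It stood in 20 of the 61 members with a promoter peak (32.8%) and in 3 of the 25 without, against 19.7% of other genes with a promoter peak. Of the 23 members with the motif 20 had a promoter peak, against 41 of the 63 without it, while the median signals were alike (60.6 and 59.0). ATGGCGG was found in 14.0% of members, against 4.75% of others and 8.37% of CpG-rich ones, and CACGTG in 12.8%, against 7.73% and 11.5%.

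GGGCGG, the commonest of the motifs, was found in 46.5% of members, against 43.0% of other promoters and 74.6% of other CpG-rich ones, although 72.1% of members are CpG-rich. CCAAT was found in 30.2% of members and 39.0% of others. GATAA was found in 26.7% of members and 23.4% of others, with 11.9% among CpG-rich ones. Within 50 bases of the summit CCGGAAG was found at 19.7% of member peaks and 9.66% of other promoter peaks, and GATAA at 11.5% and 18.6%. A match describes letters only, not which protein bound.

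The palindrome CTCGCGAG was added after the sequences had been seen. It was found in 7 of 86 member promoters (8.14%), against 1.19% of other promoters and 2.41% of CpG-rich ones. Within 50 bases of the summit it stood at 7 of 61 member peaks (11.5%) and at 2.15% of other promoter peaks. The promoter windows are tied to the 5′ end of the gene and miss copies near other start sites: Rps19, Rpl12 and Rpl10a hold the palindrome just before the start nearest to their summit, yet are not among the 7 promoters counted.

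At the start site itself, TATAAA or TATATA in the sense strand 40 to 20 bases before the start was found in 1 of 86 members, against 3.41% of other genes, 1.10% of other CpG-rich genes and 1.65% of other genes with a promoter peak. A TCT with its C within 5 bases of the start, the form of the pyrimidine initiator, was found in 25.6% of members and 16.5% of other genes. The annotated 5′ ends are not exact start sites, so searches this close to the start, and the offsets above, depend on the annotation. A run of at least 10 pyrimidines within 100 bases of the start was found in 57.0% of members and 30.7% of others. CTTTCC, searched on the sense strand of the same windows and chosen after the sequences had been seen, was found in 26.7% of members, against 8.36% of others. On the antisense strand it was found in 10.5% of members, 8.69% of others and 6.79% of other CpG-rich promoters, so the excess was mainly on the transcribed sense. It can be read in the promoters of Rpl26 and Rpl4 above. A promoter peak was seen in 15 of 23 members with CTTTCC and in 46 of 63 without.

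**Figure D5:**
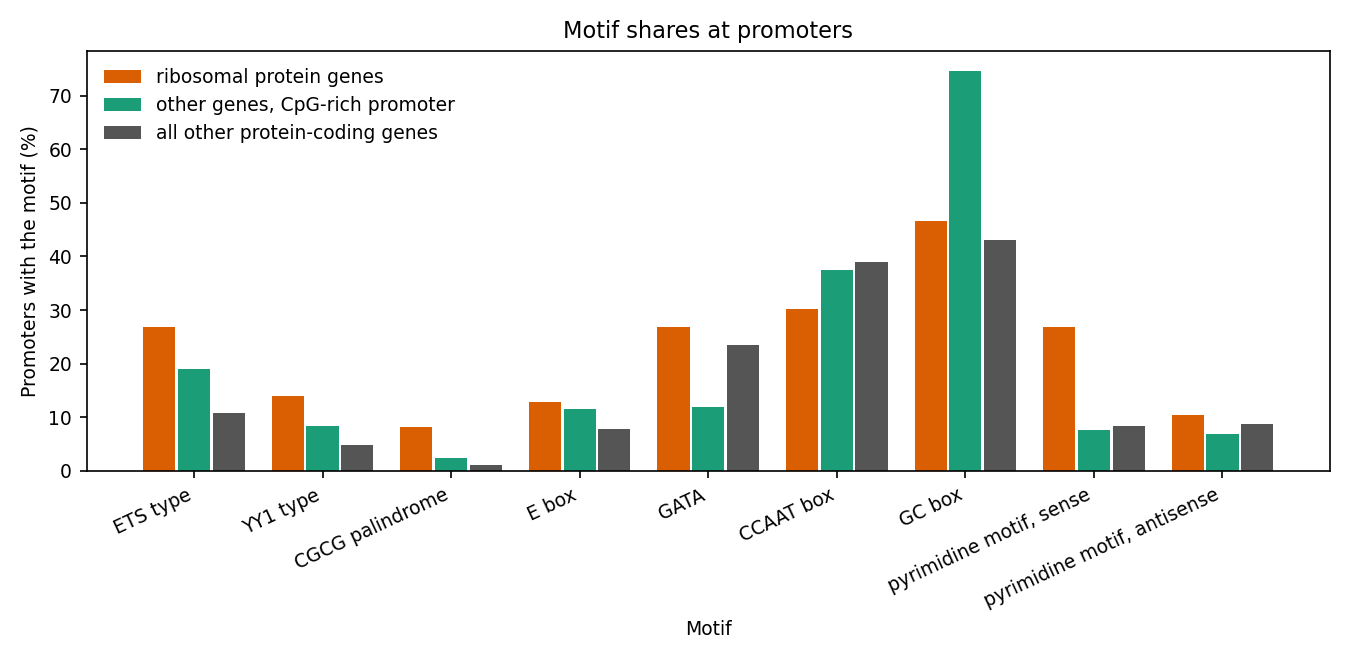
Share of promoters (%) that hold each motif, for the 86 members, for other genes with a CpG-rich promoter and for all other protein-coding genes. The first 7 motifs were searched on both strands from 250 bases before to 50 after the 5′ end, and the pyrimidine motif CTTTCC on each strand within 100 bases of it. The members exceed both other groups for the ETS, YY1, palindrome, E box and GATA motifs. They also do so for the pyrimidine motif on either strand, by less in antisense than in sense. They fall below the CpG-rich promoters for the GC box and below both groups for the CCAAT box.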

How the data were processed

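EP300 ChIP-seq peak lists of 2 replicates, both of newborn mouse liver and of 1 group, were used on build mm10. Per the file headers and deposited descriptions, the authors called peaks per replicate from aligned reads against a control, and made the optimal and conservative IDR lists from both replicates' lists and a pooled list, which was not used here. The aligner, peak caller, IDR threshold and versions were not given in the sources used here. The deposited signal value has no stated scale and in the IDR lists it is the value of the pooled list. The deposited −log10 q-value of the replicate lists was read for the peaks of members and used for no result. Depth is unknown. The columns of samples from other series numbered 0.

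A summit was column 2 plus column 10. A peak belonged to a gene when its summit lay within 1 kb of any annotated start site (GENCODE 21), and the strongest such peak gave the signal and offset. Intervals are Clopper-Pearson at 95%. No test was made, because there is 1 group and genes are not replicates. Counts were checked on simulated peaks. Sequences came from the GRCm38 genome, the assembly of mm10. Python was used with pandas 2.3.3, numpy 2.4.6, scipy 1.17.1 and matplotlib 3.10.9.

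The members, lists and motifs were chosen with earlier results of these data known, and CTCGCGAG, CTTTCC and the pyrimidine run after seeing the promoters. Named members were the 12 strongest and 5 weakest promoter peaks, the core members without one and 5 others, up to 8 with a distal summit above the list's median, the 8 best by their lower replicate rank, and Fau and Rack1. Any other member is named to account for all, except that some items are not reported here.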

Additional observations from a re-analysis of the deposited data

How the results depend on the processing

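The share of members with a summit within 1 kb stayed between 67.4% and 79.1% with either replicate's highest peaks alone and above that of other genes under all alternatives run, and fell to 52.3% (others 13.9%) with the strongest 50% of peaks. Within 10 kb it was 77.9% and 86.0% with either replicate alone, 61.6% (others 27.6%) with the strongest 50% and 94.2% (others 65.8%) within 50 kb. With only summits over 1 kb from every start site it was 18.6%, without an excess over the 24.8% of other genes. That background share lies inside the members' interval of 11.02 to 28.45, so a share below that of all other genes cannot be read from it. Among CpG-rich promoters the share was lower, at 14.5% of members (interval 6.86 to 25.8) against 32.4% of other genes. Among promoters that were not CpG-rich it was 29.2% (interval 12.6 to 51.1) against 18.7%. These differences were not tested. The median percentile was 68.2 and 71.4 by replicate, 66.7 in the conservative list and 62.2 among the strongest 50%. The median offset was -38.5 and -32.5 bases by replicate, -24 with the strongest 50%, with core members and with members that share no promoter, -18 with basic transcripts and -4 with 5′ ends only, nearer the start than other genes each time. The median distance was 50.5 and 48 bases by replicate, 44 with the strongest 50%, 50 with basic transcripts and 69 with 5′ ends, against 115 to 154 for other genes. Among genes with a promoter peak, moving the motif search from the promoter to 50 bases around the summit lowered the share of members with CCGGAAG from 32.8% to 19.7%, with ATGGCGG from 16.4% to 6.56%, with CACGTG from 16.4% to 6.56% and with CCAAT from 32.8% to 9.84%, with the same direction against other genes. For GGGCGG the shares were 44.3% against 56.7% at promoters and nearly equal at summits, 21.3% against 20.1%. The direction turned for GATAA (27.9% against 19.8%, then 11.5% against 18.6%). The shorter window holds fewer letters, and the cause was otherwise not tested. The peak lists hold no read depth, so a missing peak does not show that EP300 was absent. No paired analysis was possible because there is only 1 group.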
